A study of Mus musculus with 2 samples.

Results

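The GATA and TAL1 factors and the proteins that join them were examined in the leukemic stem cells (LSCs) of mice with chronic myeloid leukemia (CML). The 10 genes Gata1, Gata2, Gata3, Zfpm1, Tal1, Lyl1, Lmo2, Ldb1, Klf1 and Gfi1b were chosen by name, as factors of mast cells, erythroid cells and stem cells, out of the 23284 gene symbols measured. All 10 were found in both libraries, and each had more than 0.1 FPKM (mapped fragments, divided by transcript length and by library size) in both, so that none was lost to the filter on low values.

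The study asked what the loss of STAP-1, an adaptor protein, changes in CML LSCs. RNA was sequenced from 1 WT and 1 STAP-1 KO library. Both came from LSK cells (lineage-negative cells with Sca-1 and c-Kit on their surface) of C57BL/6J donors that carried CD45.2 (Ly5.2), which were transduced with a retrovirus for human BCR-ABL and GFP and given to lethally irradiated Ly5.1 recipients. GFP+ CD45.2+ LSK cells were isolated 11 days after this first transplantation. The KO donors carried a targeted disruption of Stap1 and the WT donors did not, while BCR-ABL, GFP, the transplantation and the irradiated host were common to both groups. The mice were 8 to 14 weeks old. The retroviral vector does not limit BCR-ABL to a cell type, and whether cells of several mice were pooled is not given in the sources used here. As each genotype had 1 library, there was no replicate to check a difference against and no p-value, and the genotype cannot be told apart from the mouse, the sort or the preparation of each library. In bulk RNA, fewer cells of a type and less RNA per cell cannot be told apart either.

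GATA1, GATA2 and GATA3 are zinc finger proteins that bind DNA at short words built on GATA. In blood progenitors TAL1 or its relative LYL1 pairs with an E protein on E-box words, LMO2 links this pair to a GATA factor, and LDB1 holds the assembly together and joins distant elements into loops. GATA2 serves stem cells, early progenitors and mast cells, and GATA1 takes over from it at many sites as erythroid cells and megakaryocytes mature. FOG1, the product of Zfpm1, works with GATA1 in the erythroid and megakaryocyte lines and holds back the mast cell fate, while KLF1 and GFI1B act with GATA1 in red cell precursors.

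The stretch upstream of each start shows whether such words lie there in the genes themselves. RefSeq promoters (GRCm38.p6, 250 bases before to 50 bases after an annotated start) were found for 9 of the 10 genes, in 13 windows, and Lmo2 was not among them. The GATA words searched were AGATAA or AGATAG or TGATAA or TGATAG on either strand. They were found in 5 windows of 5 genes, and 29.8% of all 32851 promoters of this length hold one. For the E-box CANNTG the count was 8 windows, against 72.3% of all promoters, and for the KLF word CCNCNCCC it was 11 windows, against 49.5%. Klf1 and Gfi1b, whose levels were nearly equal in the libraries, each had 1 GATA word, which starts 80 bases before the start of Klf1 and 120 bases before that of Gfi1b. The first of 2 windows of Tal1, a gene that was lower in STAP-1 KO, also had 1, at 205 bases before the start. The 250 upstream bases of these windows are shown 5′ to 3′ on the strand of the gene, with the GATA word in capitals (in Klf1 and Tal1 it lies on the other strand and reads as its reverse complement), for Klf1 (chr8:84901732-84901981, plus strand), Gfi1b (chr2:28621983-28622232, minus strand) and Tal1 (chr4:115056176-115056425, plus strand).
Klf1: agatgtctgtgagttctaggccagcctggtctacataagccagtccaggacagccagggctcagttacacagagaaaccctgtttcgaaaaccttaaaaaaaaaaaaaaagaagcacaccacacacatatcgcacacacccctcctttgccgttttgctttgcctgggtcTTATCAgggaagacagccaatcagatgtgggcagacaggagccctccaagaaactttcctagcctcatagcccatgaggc
Gfi1b: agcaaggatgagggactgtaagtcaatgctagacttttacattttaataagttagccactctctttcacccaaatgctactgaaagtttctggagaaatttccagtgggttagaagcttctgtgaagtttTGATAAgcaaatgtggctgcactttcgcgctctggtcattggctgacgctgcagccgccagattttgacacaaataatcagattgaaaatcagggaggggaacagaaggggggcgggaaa
Tal1: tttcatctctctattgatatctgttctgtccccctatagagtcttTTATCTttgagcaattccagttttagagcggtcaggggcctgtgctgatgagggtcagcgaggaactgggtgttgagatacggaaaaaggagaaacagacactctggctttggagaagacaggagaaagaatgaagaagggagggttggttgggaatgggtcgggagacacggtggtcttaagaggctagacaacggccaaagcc

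No GATA word was found in the windows of Gata1, Gata2, Zfpm1 and Lyl1, which says only that these letters are not in these windows. Gata3 had 1 behind its start, and the third of 3 windows of Ldb1 had 2. Gata1 and Gata2 are shown because their levels differed most among the GATA genes. Here capitals mark the KLF word, which begins 71, 55 and 34 bases before the start of Gata1 (chrX:7967911-7968160, minus strand) and 227 bases before the first start of Gata2 (chr6:88193641-88193890, plus strand). The second window of Gata2 held 6 overlapping or separate copies of the KLF word, all on the other strand, and 1 E-box.
Gata1: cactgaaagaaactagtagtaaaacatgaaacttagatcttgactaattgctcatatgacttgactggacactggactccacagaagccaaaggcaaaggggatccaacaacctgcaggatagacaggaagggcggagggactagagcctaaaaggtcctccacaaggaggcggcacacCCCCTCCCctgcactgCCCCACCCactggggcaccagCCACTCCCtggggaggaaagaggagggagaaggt
Gata2: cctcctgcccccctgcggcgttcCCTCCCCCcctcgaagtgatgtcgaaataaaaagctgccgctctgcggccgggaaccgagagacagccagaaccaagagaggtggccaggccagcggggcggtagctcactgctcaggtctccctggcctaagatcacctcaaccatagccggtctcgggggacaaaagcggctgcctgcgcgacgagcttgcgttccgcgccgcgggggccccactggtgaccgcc

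The targeted gene was read first. Stap1 was at 62.0 FPKM in WT but at 0.309 FPKM in STAP-1 KO, which matches the labels. The sorting antigens were present in both, but Kit was at 468 and 30.1 FPKM and Ly6a, the gene of Sca-1, at 285 and 106 FPKM. The deposited values carry no read counts. From the steps between low values of single-transcript genes an effective depth of 7500000 reads was estimated for WT and 10470000 for STAP-1 KO. At these depths 47.7% and 48.7% of the low values were whole reads to within 0.01. Chance gives 2% at a fixed setting, but the depth and the bases taken off were chosen to make this share largest, so 2% is not its chance level. Counting intervals (95%) rest on this estimate and cover counting error only. A gene was counted as lower or higher when its FPKM differed at least 2-fold with at least 0.1 FPKM in both libraries. Log2 ratios are log2((STAP-1 KO + 0.1)/(WT + 0.1)), which understates differences of low genes and can bring a gene counted as 2-fold apart under that mark. Over 10865 genes the log2 ratio also varied with transcript length, with a median of 0.51 in the 10% with the shortest transcripts and of -0.98 in the 10% with the longest (Spearman's rho -0.37 across genes, which are not independent replicates). For this reason the ratio after subtracting the median of genes of like length and GC content is given beside the ratio as deposited.

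Of the 10 factors, 2 were at least 2-fold lower in STAP-1 KO (Gata2 and Tal1) and 1 was at least 2-fold higher (Lmo2). Among all 12507 genes that could be compared, 22.9% were lower and 12.3% were higher by this measure, 35.2% in all, so the counts for the 10 factors are close to the background. The median log2 ratio of the 10 genes was -0.05 and that of the 10974 genes whose mean was 1 FPKM or more was -0.04. Their summed FPKM was 931 in WT and 615 in STAP-1 KO. Of the 10 genes, 5 had a log2 ratio below 0 and 5 above 0.

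**Figure D1:**
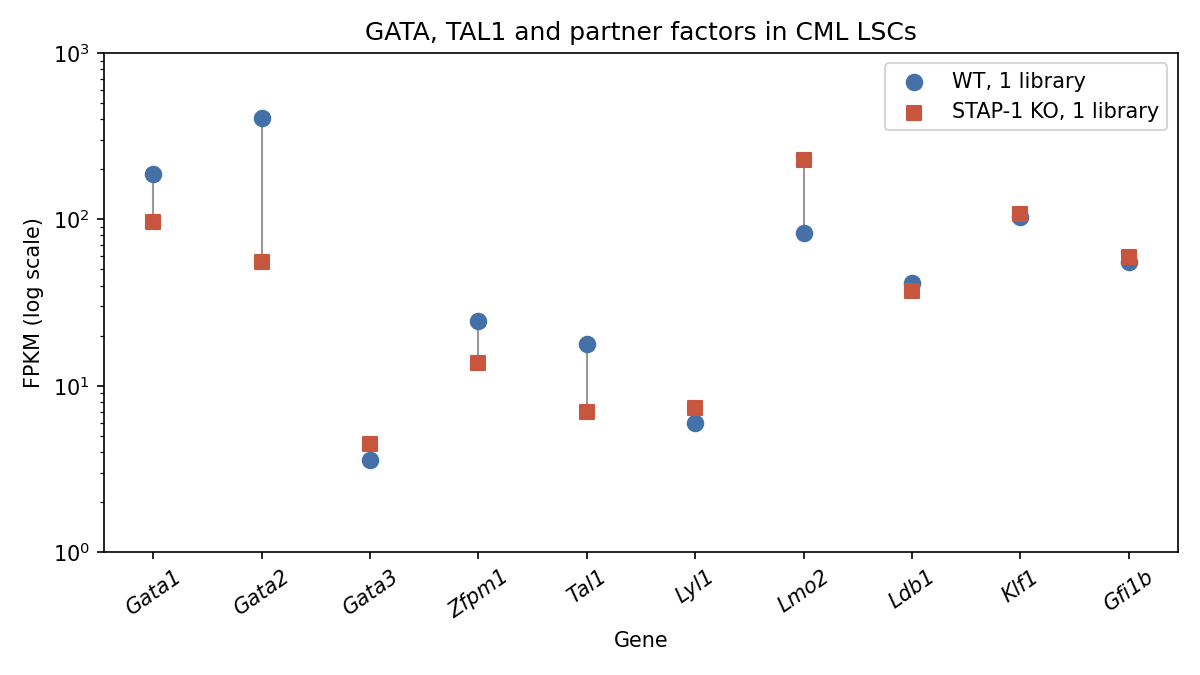
FPKM (log axis) of the 10 genes, with 1 circle for the WT library and 1 square for the STAP-1 KO library and a line that joins them. Gata2 lies at 409 and 55.2 FPKM and Lmo2 at 82.6 and 227 FPKM, while the symbols of Klf1 and Gfi1b almost coincide.

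The GATA genes differed in the size of their ratios. Gata2, the GATA factor of stem cells and mast cells, had 409 FPKM (95% counting interval 401 to 417) in WT and 55.2 FPKM (52.8 to 57.7) in STAP-1 KO, on chromosome 6 from 88193891 to 88207032. Its level was 7.42-fold lower in STAP-1 KO, the largest difference among the 10 genes. Its log2 ratio was -2.89 (counting interval -2.96 to -2.82) and -2.42 after the correction for length and GC content. In rank it went from place 190 of all genes in WT to place 2276 in STAP-1 KO.

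Gata1, the GATA factor of red cell precursors, megakaryocytes, mast cells and eosinophils, lies on chromosome X from 7959260 to 7978071. It had 187 FPKM (179.5 to 195) in WT and 96.1 FPKM (91.6 to 101) in STAP-1 KO. It was 1.95-fold lower, just under the 2-fold mark. Its log2 ratio of -0.96 (-1.05 to -0.87) became -1.20 after the correction, past that mark, and genes of its transcript length had a median log2 ratio of 0.42. Whether Gata1 counts as lower thus depends on how the ratio is computed.

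Gata3, best known from T cells and innate lymphoid cells, was the lowest of the 10 genes in both libraries. It had 3.59 FPKM in WT and 4.48 FPKM in STAP-1 KO, from roughly 81 and 141 reads by estimate. The log2 ratio was 0.31, with a counting interval from -0.09 to 0.73, and 0.21 after the correction, so that no difference could be seen at this depth. The exons of Gata3 overlap those of an antisense gene, Gm13256, by 155 bases, and whether the counting used the strand is not given in the sources used here.

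Together the GATA genes gave 600 FPKM in WT and 156 FPKM in STAP-1 KO. Gata2 made up 68.2% of this sum in WT and 35.4% in STAP-1 KO. Gata1 made up 31.2% and 61.7%, and Gata3 0.60% and 2.88%. The more abundant GATA gene was thus Gata2 in WT and Gata1 in STAP-1 KO. Within a library the scaling cancels, and the ratio of Gata2 to Gata1 was 2.19 in WT and 0.574 in STAP-1 KO, a 3.81-fold difference. After the length and GC correction this difference was 2.33-fold. The order within STAP-1 KO depended on which transcript the length was taken from. With the reads divided by the shortest coding transcript of each gene the ratio was 4.33 in WT and 1.14 in STAP-1 KO, with the same fold between the libraries by construction.

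**Figure D2:**
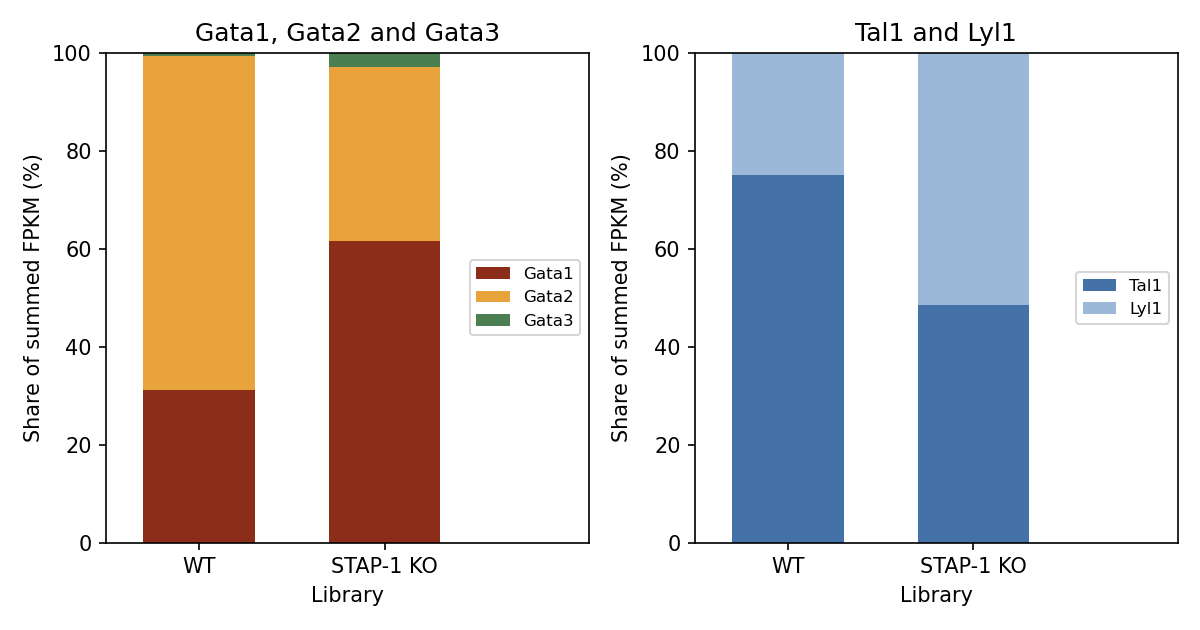
Share of each gene in the summed FPKM (%) of Gata1, Gata2 and Gata3 (left) and of Tal1 and Lyl1 (right), 1 bar per library. Gata2 takes 68.2% of its bar in WT and 35.4% in STAP-1 KO, and Lyl1 takes 24.95% and 51.5%.

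Zfpm1 encodes FOG1, the cofactor that binds the GATA factors. It had 24.6 FPKM (22.7 to 26.7) in WT and 13.7 FPKM (12.5 to 15.1) in STAP-1 KO, on chromosome 8 from 122282141 to 122337251. It was lower by 1.79-fold, which is below the mark, with a log2 ratio of -0.84 (-1.02 to -0.66) and of -0.46 after the correction. The ratio of Gata1 to Zfpm1 was 7.59 in WT and 6.99 in STAP-1 KO as deposited, a 1.09-fold difference, but 1.67-fold after the correction.

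The TAL1 pair of basic helix-loop-helix genes diverged. Tal1, needed for the origin of blood and for red cells and megakaryocytes, had 17.9 FPKM (16.4 to 19.5) in WT and 6.94 FPKM (6.16 to 7.78) in STAP-1 KO, on chromosome 4 from 115056426 to 115071755. It was 2.58-fold lower. The log2 ratio was -1.35 (-1.58 to -1.16) and -1.05 after the correction, which leaves it only just past the 2-fold mark.

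Lyl1, the relative that shares the E-box partners of TAL1 in stem cells and progenitors, had 5.94 FPKM (4.64 to 7.50) in WT and 7.38 FPKM (6.13 to 8.80) in STAP-1 KO. The log2 ratio was 0.31, with a counting interval from -0.13 to 0.75 and a value of 0.30 after the correction, and the levels rest on roughly 71 and 123 reads by estimate. No difference in Lyl1 was detectable at this depth. The ratio of Lyl1 to Tal1 was 0.332 in WT and 1.06 in STAP-1 KO, and Lyl1 made up 24.95% and 51.5% of the sum of the pair. The 3.20-fold difference in this ratio was 2.56-fold after the correction. The intervals of Lyl1 and Tal1 overlapped in STAP-1 KO and not in WT. With the shortest coding transcripts Tal1 stayed above Lyl1 in both libraries (ratios of 0.0501 and 0.160). Lyl1 lies inside the span of Nfix on the other strand, and 4 exonic bases are shared. Nfix had 3.27 FPKM in WT and 8.12 FPKM in STAP-1 KO.

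The bridging genes went separate ways. Lmo2, whose LIM-domain protein joins TAL1 to a GATA factor, had 82.6 FPKM (77.4 to 88.1) in WT and 227 FPKM (219.5 to 234.5) in STAP-1 KO, on chromosome 2 from 103957986 to 103981878. It was 2.75-fold higher in STAP-1 KO, the only one of the 10 genes past the mark in that direction. Its log2 ratio was 1.46 (1.35 to 1.56) and 1.24 after the correction, and it went from place 1383 to place 451 among all genes.

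Ldb1, which holds the complex together by binding LMO2, was at 41.6 FPKM (39.0 to 44.4) in WT and 36.9 FPKM (34.8 to 39.1) in STAP-1 KO. Its log2 ratio of -0.18 (-0.30 to -0.05) became 0.08 after the correction. Its sign therefore depends on the correction. The ratio of Lmo2 to Ldb1 was 1.98 in WT and 6.15 in STAP-1 KO, a 3.10-fold difference (2.23-fold after the correction). The exons of Ldb1 overlap those of Pprc1 by 177 bases.

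The partners of GATA1 in red cell precursors were nearly level. Klf1, the activator of the adult beta-globin gene, had 103 FPKM (96.9 to 110) in WT and 108 FPKM (103 to 114) in STAP-1 KO, with a log2 ratio of 0.07 (-0.04 to 0.19). Gfi1b, a repressor that recruits LSD1 in red cell and platelet precursors, had 55.8 FPKM (51.7 to 60.2) and 59.4 FPKM (55.8 to 63.2), with a log2 ratio of 0.09 (-0.05 to 0.23). After the correction the values were 0.05 for Klf1 and 0.04 for Gfi1b. Both counting intervals hold 0, and both upper ends lie well under the 2-fold mark. The ratio of Klf1 to Gata1 was 0.552 in WT and 1.13 in STAP-1 KO. That of Gfi1b to Gata1 was 0.299 and 0.618.

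**Figure D3:**
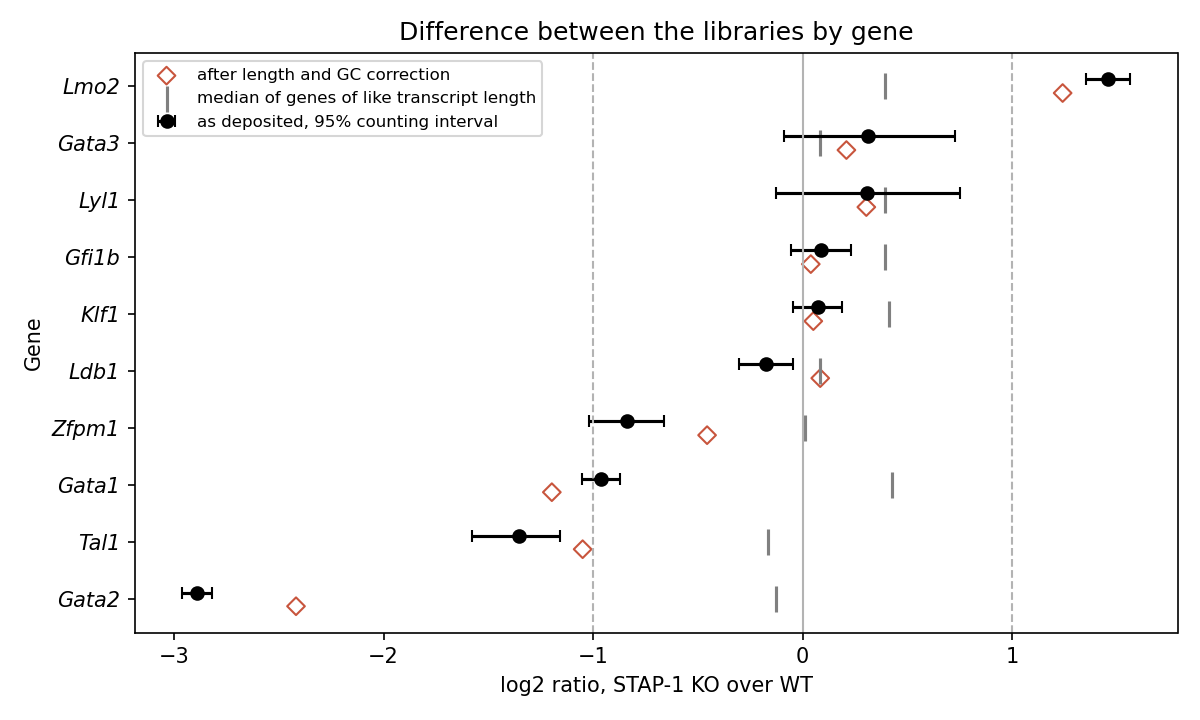
Log2 ratio of STAP-1 KO over WT for each gene, with filled circles for the deposited values and 95% counting intervals, open diamonds for the values after the length and GC correction, and grey ticks for the median of genes of like transcript length. Dashed lines mark 2-fold; Gata2 at -2.89 lies farthest to the left and Lmo2 at 1.46 farthest to the right.

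The order of the levels differed between the libraries. In WT it ran from Gata2 through Gata1, Klf1, Lmo2, Gfi1b, Ldb1, Zfpm1, Tal1 and Lyl1 to Gata3, and no neighbours had overlapping counting intervals. In STAP-1 KO the order was Lmo2, Klf1, Gata1, Gfi1b, Gata2, Ldb1, Zfpm1, Lyl1, Tal1 and Gata3. There Gfi1b and Gata2 overlapped, and so did Lyl1 and Tal1. These orders rest on the deposited FPKM. In STAP-1 KO those of Gata1 and Gata2 and of Lyl1 and Tal1 turned around with the shortest coding transcripts, as given above. Gata2 thus stood at place 1 in WT and at place 5 in STAP-1 KO, and Lmo2 at places 4 and 1. Ldb1, Zfpm1 and Gata3 kept their places.

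Further proteins that join the complex or act as its cofactors were taken from a list of 31 genes, of which 24 could be compared. Of these 5 were lower (20.8%) and 4 higher (16.7%), close to the 22.9% and 12.3% of all genes, with a median log2 ratio of 0.05 (0.24 after the correction). The LIM-only relatives of Lmo2 were among the higher ones. Lmo4 had 6.61 FPKM in WT and 17.5 FPKM in STAP-1 KO, and Lmo1 had 1.24 and 6.42 FPKM, where the WT value rests on about 10 estimated reads. Hdac2, a histone deacetylase (117 and 261 FPKM), and Tcf4, an E protein gene (2.86 and 6.84 FPKM), were the others, named after their values were seen. After the correction 3 of the 4 stayed past 2-fold, and Hdac2 was at 0.87.

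The 5 that were lower were Ep300, Chd4, Ikzf1, Crebbp and Rcor1. Ep300, an acetyltransferase, had 9.04 FPKM in WT and 1.86 FPKM in STAP-1 KO. Chd4, the ATPase of the NuRD complex that FOG1 recruits, had 13.8 and 3.87 FPKM, and Ikzf1, the Ikaros gene, had 46.6 and 11.9 FPKM. Crebbp (5.15 and 1.65 FPKM) and Rcor1 (60.3 and 29.1 FPKM) are again named after their values were seen. These genes have long transcripts, and only Ep300 (log2 ratio -1.18) and Ikzf1 (-1.53) stayed past 2-fold after the correction, while Chd4 was at -0.72, Crebbp at -0.54 and Rcor1 at -0.51.

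Red cell genes served by GATA1, TAL1 and KLF1 were read next. Of 38 listed genes 31 were found under the listed symbol, and all of these could be compared. Of the 31, 9 were lower (29.0%, against 22.9% of all genes) and 2 higher (6.5%, against 12.3%). The median log2 ratio was -0.52 (-0.49 after the correction) and the summed FPKM was 4650 in WT and 3418 in STAP-1 KO. Slc4a1, the anion exchanger of the red cell membrane, had 48.3 and 12.4 FPKM, and E2f2, a cell cycle factor of late precursors, had 7.83 and 1.52 FPKM. Hbb-b2, an adult beta-globin gene, had 377 and 122 FPKM. Its close copy Hbb-b1, named after its values were seen, had 951 and 681 FPKM, below the cut-off, and the split of reads between the copies is uncertain. The alpha-globin copies went in opposite directions, with 773 and 15.9 FPKM for Hba-a2 and 34.8 and 380 FPKM for Hba-a1, and since they are near-identical the split of their reads is uncertain, so that each direction counted here is doubtful. The other gene counted as higher was Nfe2, a partner of small MAF proteins (106.5 and 236 FPKM), named after its value was seen, whose log2 ratio of 1.15 was 0.77 after the correction. Without the alpha-globin pair 8 of 29 were lower (27.6%) and 1 was higher. After the correction 6 of these 8 stayed past 2-fold, with 1 that has no corrected value, and 0 were higher. The summed FPKM of that pair was 807 in WT and 396 in STAP-1 KO.

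Megakaryocyte genes, served by GATA1, TAL1 and GFI1B, went in both directions. Of 20 listed genes 19 could be compared, and 8 were lower (42.1%, against 22.9% of all genes) and 4 higher (21.1%, against 12.3%), with a median log2 ratio of -0.49 (-0.20 after the correction). After the correction 6 of the 8 and 3 of the 4 stayed past 2-fold. Vwf, counted as lower at -1.15 and named after its values were seen, was then at 0.15. Among those lower, Itga2b and Itgb3, the subunits of the platelet fibrinogen receptor, had 123 and 32.5 FPKM and 27.7 and 3.55 FPKM. Gp1ba, part of the receptor for von Willebrand factor, had 19.6 and 4.43 FPKM, Rab27b, a granule traffic gene that mast cells also express, had 69.6 and 11.99 FPKM, and Nbeal2, needed for alpha granules, had 13.75 and 0.934 FPKM. The 4 that were higher, Ppbp, Treml1, Tubb1 and Selp, had at most 17.97 FPKM and were named after their values were seen. Tubb1 rests on about 4 and 13 estimated reads, and its counting interval (-0.48 to 3.29) holds 0. Mast cells carry Itga2b and Itgb3 as well, and the part of any one cell type in these values was not tested.

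Mast cell genes, many of them served by GATA2 and GATA1, were lower as a list. Of 19 listed genes 16 could be compared, and 15 of the 16 were lower (93.8%, against 22.9% of all genes) and 0 higher (12.3% of all genes), with a median log2 ratio of -3.26 (-3.57 after the correction) and a summed FPKM of 60250 in WT and 7007 in STAP-1 KO. Hdc, the histidine decarboxylase of mast cells and basophils, had 5629 and 330 FPKM, and Il1rl1, the IL-33 receptor, had 521 and 23.3 FPKM. The tryptase genes Tpsb2 (7016 and 185 FPKM) and Tpsab1 (430 and 8.74 FPKM) are close relatives, and the division of reads between them is uncertain. Kit belongs to this list and to the sort gate. Only Mcpt1 (379 and 286 FPKM) of the genes compared was within 2-fold, and it was named after its values were seen. Mrgprb1, a receptor of mature connective tissue mast cells, was listed at 0 in WT, and Mrgprb2 was listed at 0 in STAP-1 KO. Both were named after their values were seen. Against these 60250 FPKM in WT, the 21 genes of the stem cell list summed to 680 FPKM there and to 443 FPKM in STAP-1 KO. The mast cell protease genes Cpa3 (17980 and 1774 FPKM) and Cma1 (13920 and 1168 FPKM), named after their values were seen, ranked 2 and 3 of all genes in WT and 17 and 28 in STAP-1 KO. These levels stand against the LSC label of both libraries as a population of stem cells alone, and from bulk RNA it cannot be told in which cells Gata2 was expressed. The mast cell list moved with Gata2, and its part in the Gata2 difference was not tested.

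The basophil list moved the same way, with 8 of 10 genes lower (80.0%, against 22.9% of all genes) and 1 higher (Cebpa, named after its value was seen), 1 of 10 against 12.3% of all genes, a median log2 ratio of -2.38 (-2.99 after the correction) and a summed FPKM of 14100 in WT and 3499 in STAP-1 KO. It shares Gzmb with the mast cell list, and Gzmb, named after its values were seen, made up 9642 and 2302 FPKM of each sum. Cd200r3, an activating receptor of basophils and mast cells, had 549 and 30.3 FPKM. Its relative Cd200r4 had 354 and 12.7 FPKM, Il4 had 274 and 42.2 FPKM, Il6 had 384 and 52.1 FPKM, and Itga2 had 11.8 and 0.167 FPKM. Smaller differences were seen in Mcpt8 (2800 and 993 FPKM), which was lower, and in Prss34 (71.1 and 56.7 FPKM), which was within 2-fold. Both were named after their values were seen. Of the eosinophil list, another GATA1 lineage, 10 of 11 genes were found under the listed symbol, and 6 could be compared. Of these 3 were higher (12.3% of all genes) and 1 lower (16.7%, near the 22.9% of all genes), with a summed FPKM of 11.4 in WT and 80.3 in STAP-1 KO. Prg2, the major basic protein gene, had 2.12 and 61.7 FPKM, Epx, the eosinophil peroxidase gene, had 1.02 and 8.62 FPKM, and Prg3 had 0.360 and 2.84 FPKM. Ear2 was lower (6.91 and 2.78 FPKM) and Ear1 was listed at 0 in WT and at 2.46 FPKM in STAP-1 KO. The WT values of Prg2 and Prg3 rest on about 10 and 2 estimated reads.

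Stem cell genes, the other setting of GATA2, TAL1, LYL1 and LMO2, did not share a direction. Of 21 listed genes 19 could be compared, with 4 lower (21.1%) and 3 higher (15.8%), near the shares over all genes. The median log2 ratio was -0.08 (0.26 after the correction). Prdm16 (0.0973 and 1.18 FPKM, about 6 and 104 estimated reads) and Hoxa5 (0 and 0.572 FPKM, about 0 and 10) were not compared. Their WT values lay below the floor and their STAP-1 KO values were larger, and both were named after their values were seen. Mecom, the EVI1 gene of long-term stem cells, had 4.08 and 1.56 FPKM, Slamf1, the CD150 gene, had 3.39 and 8.67 FPKM, and Hoxa9, a homeobox gene of progenitors, had 0.452 and 2.73 FPKM. Angpt1, a ligand of the TEK receptor, had 24.9 and 51.1 FPKM, and its log2 ratio of 1.04 was 0.88 after the correction, so that 2 of the 3 higher genes stayed past 2-fold. Ly6a was lower as given above, and the remaining genes called lower were Hlf (0.318 and 0.140 FPKM) and Vwf (1.89 and 0.799 FPKM), named after their values were seen. Of the 4, only Ly6a stayed past 2-fold after the correction (log2 ratio -1.97). Mecom was then at -0.82, Hlf at -0.29 and Vwf at 0.15. Hlf was already at -0.80 before the correction, because its log2 ratio includes the pseudocount and its call does not. The counting interval of Hlf (-2.66 to 0.20) holds 0.

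For Gata3, the genes of T cells and group 2 innate lymphoid cells (ILC2) give the setting. Of 18 listed genes 16 could be compared, with 5 lower (31.2%, against 22.9% of all genes) and 7 higher (43.8%, against 12.3%), but only 8 of the 18 had a mean of 1 FPKM or more. Cd3g, a chain of the T cell receptor complex, had 1.80 and 5.04 FPKM, and Lck, its kinase, had 11.8 and 41.9 FPKM. After the correction Cd3g was at 0.87, under 2-fold. Cd4, counted as higher and named after its values were seen, has a counting interval that holds 0 (-0.10 to 4.18). Il7r had 11.6 and 1.56 FPKM, Il13, a cytokine gene that GATA3 activates in ILC2 and that mast cells also express, had 19.8 and 1.44 FPKM, and Areg had 1.88 and 0.289 FPKM. The other 2 that were lower, Cd8a and Klrg1, had at most 1.27 FPKM, were named after their values were seen, and have counting intervals that hold 0 (-3.67 to 0.42 and -3.08 to 0.20). The median log2 ratio of the 8 was 0.73 (0.52 after the correction). The sum over the list was 63.9 FPKM in WT and 82.1 FPKM in STAP-1 KO.

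Genes of granulocytes and monocytes, a fate that high GATA activity opposes, served as a further list. Of 16 listed genes 15 were found under the listed symbol. Spi1 was not found and so was not read. Of the genes found, 14 could be compared, and 9 were higher (64.3%, against 12.3% of all genes) and 3 lower (21.4%, near the 22.9% of all genes). The median log2 ratio was 1.70 (1.96 after the correction) and the summed FPKM was 1247 in WT and 4420 in STAP-1 KO. Mpo, the myeloperoxidase gene, had 248 and 1973 FPKM, Elane and Prtn3, serine protease genes of primary granules, had 112 and 823.5 FPKM and 57.4 and 525 FPKM, Ctsg had 104.5 and 841 FPKM, and Csf3r, the receptor of G-CSF, had 1.51 and 13.3 FPKM. The 3 that were lower, Irf8 (45.4 and 19.6 FPKM), Klf4 (7.01 and 2.96 FPKM) and Egr1 (575 and 121 FPKM), were named after their values were seen. This list was higher where Gata2 was lower, and the part of either in the other was not tested.

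**Figure D4:**
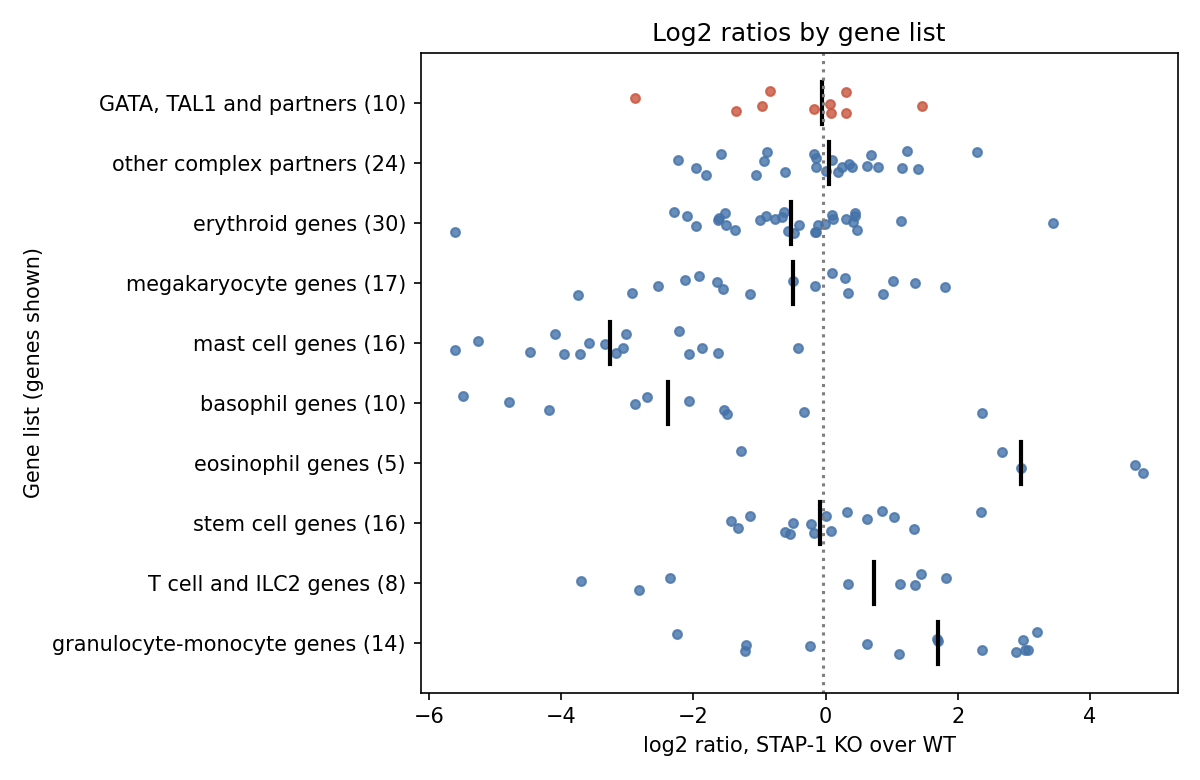
Log2 ratio of STAP-1 KO over WT for each gene whose mean was 1 FPKM or more, 1 point per gene and 1 row per list, with the number of genes in brackets, a black bar at the list median and a dotted line at the median of all genes (-0.04). The 10 factors centre at -0.05, the mast cell genes at -3.26 and the granulocyte-monocyte genes at 1.70.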

How the data were processed

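RNA-seq was analysed in 1 WT and 1 STAP-1 KO library of CML LSCs. Per the labels, cDNA was made with a SMART-Seq v4 low-input kit and libraries with a Nextera XT kit, and 75-base single reads were sequenced. The RNA kit is named differently in the labels (miRNeasy) and the methods (RNeasy Mini). The authors mapped reads to mm10, and the submitters' processing notes name TopHat2 2.0.13, Bowtie2 2.2.3, SAMtools 0.1.19 and Cufflinks 2.2.1. The methods give another SAMtools version and name Cuffnorm, the Cufflinks program that scales libraries to each other, for the FPKM values. The authors deposited FPKM values for 23284 gene symbols per library. The annotation, the scaling method chosen in Cuffnorm and the use of strand are not given in the sources used here.

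Ratios, ranks and counts of genes at least 2-fold apart (floor of 0.1 FPKM in both libraries, no pseudocount) came from scripts in Python 3.11.15 that used pandas 2.3.3, numpy 2.4.6 and, for intervals and ranks, scipy 1.17.1, and plots from matplotlib 3.10.9. Log2 ratios used a pseudocount of 0.1 FPKM, and list medians used genes whose mean was 1 FPKM or more. GENCODE M21 (GRCm38) gave positions, transcript length and GC content. It held 20911 of the symbols as written and 1901 under an older symbol, and 472 had no match. The correction subtracts the median log2 ratio in 20 bins of length and of GC content. Estimated reads are FPKM times the effective depth times the transcript length less 212 bases (WT) or 208 bases (STAP-1 KO). The steps were tested on simulated data. The design gave no test of the genotype.

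All 10 factors are named. Of each of the 9 other lists, up to 5 genes of that mean are named, those with the log2 ratio farthest from 0 when the pseudocount was 1 FPKM. Stap1, Kit, Ly6a and genes that overlap a factor are named as well, and others are marked in the text. The factors and the lists were chosen with earlier results of these data known. The lists share some genes, among them Gzmb, Cebpa, Gfi1 and Vwf. Alternatives changed the pseudocount, floor, cut-off, minimum mean, scaling, length and GC correction, read minimum and transcript used for length. The list counts after the correction and without the alpha-globin pair, and the corrected ratios between factors, were added after seeing the data.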

Additional observations from a re-analysis of the deposited data

How the results depend on the processing

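No paired analysis was possible because each genotype had 1 library and no result came from a test. For the same reason no library could be left out. The counts of factors depended on the cut-off. At 1.5-fold, 4 of the 10 were lower (Gata1, Gata2, Zfpm1 and Tal1) and 1 was higher, among 4101 lower and 3201 higher genes in all. At 4-fold, 1 was lower (Gata2) and 0 were higher, among 1071 and 300 genes. At 2-fold, 2860 genes were lower and 1538 higher, and under the other settings lower genes made up from 56.2% (1.5-fold) to 78.1% (4-fold) of those counted, with 58.1% to 69.6% over the scalings. Under the scaling to the same sum without the 100 highest genes, and after the length and GC correction, Gata1 joined Gata2 and Tal1, with log2 ratios of -1.03 and -1.20.

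The log2 ratio of Gata2 ranged from -2.96 to -2.42 over 7 alternatives, that of Tal1 from -1.42 to -1.05 and that of Lmo2 from 1.24 to 1.56. Ldb1 ranged from -0.24 to 0.08 and is the only factor whose sign changed. The median of the 10 factors ranged from -0.12 to 0.05, and that of all genes from -0.11 to 0.06 over the scalings. With a minimum mean of 5 FPKM, which leaves out Gata3, the median of the factors kept was -0.175. Depth limits Gata3 and Lyl1 most.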
